A study of Mus musculus with 13 samples.

Results

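Globin genes and genes of red blood cell development were read across 13 arrays of mouse cells and tissue. The group held 9 genes: the adult beta-type globins Hbb-bt and Hbb-b2, the embryonic beta-type globins Hbb-y and Hbb-bh1, the embryonic alpha-type globin Hba-x, the adult alpha-type globin Hba-a1, the haem enzyme Alas2, and the transcription factors Klf1 and Gata1. Every feature that the platform annotation assigns to these genes, older symbols included, was taken, which gave 10 features among the 62976 of the array. All 9 genes were found among 20738 named genes, Hbb-y with 2 features and the others with 1 each. On build GRCm38.p6 the beta-type genes lie on chromosome 7 (Hbb-bt at chr7:103812524-103813923, Hbb-bh1 at chr7:103841638-103843162, Hbb-y at chr7:103851754-103853207) and the alpha-type genes on chromosome 11 (Hba-x at chr11:32276600-32278116, Hba-a1 at chr11:32283672-32284486). Alas2 (chrX:150547417-150570622) and Gata1 (chrX:7959260-7976663) are on the X chromosome, and Klf1 is at chr8:84901982-84905291. The feature for Hbb-bt is listed on the platform under the older name Hbb-b1.

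The study made induced embryonic Sertoli cells (ieSC) from fibroblasts and set them beside native gonadal samples. Mouse embryonic fibroblasts (MEF, 2 arrays) carried an empty vector and tail tip fibroblasts (TTF, 2 arrays) carried tdTomato, a red fluorescent protein. The TTF-derived ieSC (TTF-ieSC, 2 arrays) and the MEF-derived ieSC (MEF-ieSC, 1 array) carried Nr5a1, Wt1, Dmrt1, Gata4 and Sox9. The native samples, without a transgene, were whole male gonad at 14.5 days post coitum (dpc), immature Sertoli cells from 19 dpc testis and mature Sertoli cells of mice aged 8 weeks, with 2 arrays each. The fibroblasts had 3 passages in 10% serum and the ieSC 6 months in 2% serum with doxycycline. The immature and mature Sertoli cells had 3 and 7 days in 10% serum, while the gonad was not cultured. All cells other than the ieSC were labelled wild type, the strain was not given, and nothing states that replicate arrays came from separate animals or cultures, so a p-value covers just the spread among the deposited arrays, which may be technical.

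Haemoglobin joins alpha-type and beta-type globin chains around haem. In the mouse embryo the primitive red cells of the yolk sac make the embryonic chains, and definitive red cells from the fetal liver make the adult ones, so fetal blood in mid gestation holds both. GATA1 and KLF1 bind the regulatory elements of globin and haem genes in red cell precursors, and ALAS2 makes the first haem precursor there, while other cells use ALAS1. Gata1 is also known outside blood: mouse Sertoli cells switch it on after birth, from a start upstream of the one used in red cells.

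Both factors have known recognition letters, and some of the members' promoters hold them within the window before the start site. The 250 bases before the RefSeq start were searched on both strands for the letters GATA preceded by A or T and followed by A or G, and for the KLF1 letters CCNCNCCC, where N is any base. RefSeq promoters of build GRCm38.p6 were held for 7 of the 9 genes, all but Hbb-b2 and Hbb-bh1. The 5 shown are those of an adult beta-type globin, an adult alpha-type globin, the haem enzyme and both factors, because the results turn on them. They run 5′ to 3′ on the gene's strand, with matches in capitals, and lie at chr7:103813924-103814173 (minus strand), chr11:32283422-32283671 (plus), chrX:150547167-150547416 (plus), chr8:84901732-84901981 (plus) and chrX:7967911-7968160 (minus).
Hbb-bt: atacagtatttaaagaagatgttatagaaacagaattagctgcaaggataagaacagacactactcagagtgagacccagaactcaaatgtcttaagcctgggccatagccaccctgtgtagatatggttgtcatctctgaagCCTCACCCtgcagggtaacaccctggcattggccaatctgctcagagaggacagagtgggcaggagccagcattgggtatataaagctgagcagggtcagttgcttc
Hba-a1: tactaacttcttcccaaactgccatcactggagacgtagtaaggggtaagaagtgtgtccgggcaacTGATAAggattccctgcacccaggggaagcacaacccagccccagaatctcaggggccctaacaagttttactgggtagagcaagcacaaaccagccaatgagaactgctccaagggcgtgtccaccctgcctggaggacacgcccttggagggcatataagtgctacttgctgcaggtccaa
Alas2: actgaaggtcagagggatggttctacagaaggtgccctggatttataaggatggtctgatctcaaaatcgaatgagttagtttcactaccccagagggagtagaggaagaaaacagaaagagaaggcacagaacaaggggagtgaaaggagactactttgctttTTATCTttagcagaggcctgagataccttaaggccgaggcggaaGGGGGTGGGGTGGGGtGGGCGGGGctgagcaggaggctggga
Klf1: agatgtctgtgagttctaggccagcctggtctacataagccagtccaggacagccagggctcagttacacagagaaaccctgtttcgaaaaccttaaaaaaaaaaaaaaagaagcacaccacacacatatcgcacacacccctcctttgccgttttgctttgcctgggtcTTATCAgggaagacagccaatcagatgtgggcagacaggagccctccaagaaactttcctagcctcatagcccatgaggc
Gata1: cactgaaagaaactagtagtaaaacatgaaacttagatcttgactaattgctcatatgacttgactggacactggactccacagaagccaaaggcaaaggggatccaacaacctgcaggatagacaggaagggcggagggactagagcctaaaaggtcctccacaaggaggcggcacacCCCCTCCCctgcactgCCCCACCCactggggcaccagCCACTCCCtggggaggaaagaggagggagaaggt
GATA letters stood once each in the windows of Hba-a1, Alas2 and Klf1, and KLF1 letters stood once in that of Hbb-bt, 3 times in that of Gata1 and 4 times, partly overlapping, in that of Alas2. The windows of Hbb-y (1 GATA match) and Hba-x (2 GATA matches and 1 KLF1 match) were searched as well. In all, 5 of 7 windows held GATA letters, against 26.5% of 32851 promoters, and 4 of 7 held KLF1 letters, against 45.9%. The Hbb-bt and Gata1 windows held no GATA letters, and those of Hbb-y, Hba-a1 and Klf1 no KLF1 letters. The Gata1 window lies within the annotated gene, whose outermost end on the minus strand is at 7976663, so it does not cover the upstream start. A match is a run of letters and not a measured binding site.

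The values were deposited log2 signals with the same distribution on every array, a median of 7.488 and a 75th percentile of 10.473. Depth is not defined for arrays, and their number limits the precision. No detection flags were given, so a value near or under the median is called dim here, and the size of a difference from a dim value rests on an unknown background. Of 20738 genes, 16658 lay above the median on at least 2 arrays and were tested in 1 limma fit over all arrays. All 9 members were among them, but Hbb-y and Hba-x passed only through the gonad arrays, so their difference from the gonad follows in part from the filter. Replicate arrays differed by 0.167 to 0.310 on the log2 scale (root mean square over tested genes). Sertoli cell genes, 12 on the array, had array medians of 15.41 and 15.44 in the gonad. These medians were 13.80 and 13.83 in immature cells and 13.40 and 13.52 in mature cells. They were 9.99 and 10.03 in TTF-ieSC against 7.03 and 7.11 in TTF, and 9.65 in MEF-ieSC against 9.02 and 9.03 in MEF. The list holds Wt1, Gata4 and Sox9, which the ieSC carried, so it is not independent of the induction. Of these, Wt1 was higher in the ieSC, at 16.48 in TTF-ieSC against 6.81 in TTF and 16.58 in MEF-ieSC against 11.77 in MEF. Sox9 was 9.79 against 11.31 and 9.12 against 10.88, and Gata4 6.92 against 7.19 and 6.92 against 9.43. The 8 fibroblast genes had array medians of 15.36 to 15.57 in MEF and TTF and 6.36 to 7.04 in the ieSC. The immature and mature cultures also carried signal of other testis cells: array medians of the 10 germ cell genes were 10.39 to 10.79 there, and those of 4 Leydig cell genes 11.98 to 12.31.

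The gonad had bright signal for embryonic and adult globins, and the embryonic ones were bright in no other group. The adult beta-type globin Hbb-bt had log2 signals of 17.79 and 17.89 in the gonad, 8.65 and 8.93 in immature Sertoli cells, 3.52 and 4.51 in mature Sertoli cells and 4.37 to 5.42 on the 7 fibroblast and ieSC arrays. Hbb-b2, the other adult beta-type globin, was 16.98 and 17.05 in the gonad, 7.62 and 7.71 in immature Sertoli cells and 4.70 to 5.76 on the other 9 arrays. For both genes the gonad stood far above everything else, the immature Sertoli arrays came next without overlap, and the rest was dim. Hbb-b2 lay near the array median in immature Sertoli cells and so was dim there too. Which adult beta-type genes a mouse carries depends on its strain, and the genes are close copies, so these features cannot be assumed to read 1 gene each.

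**Figure D1:**
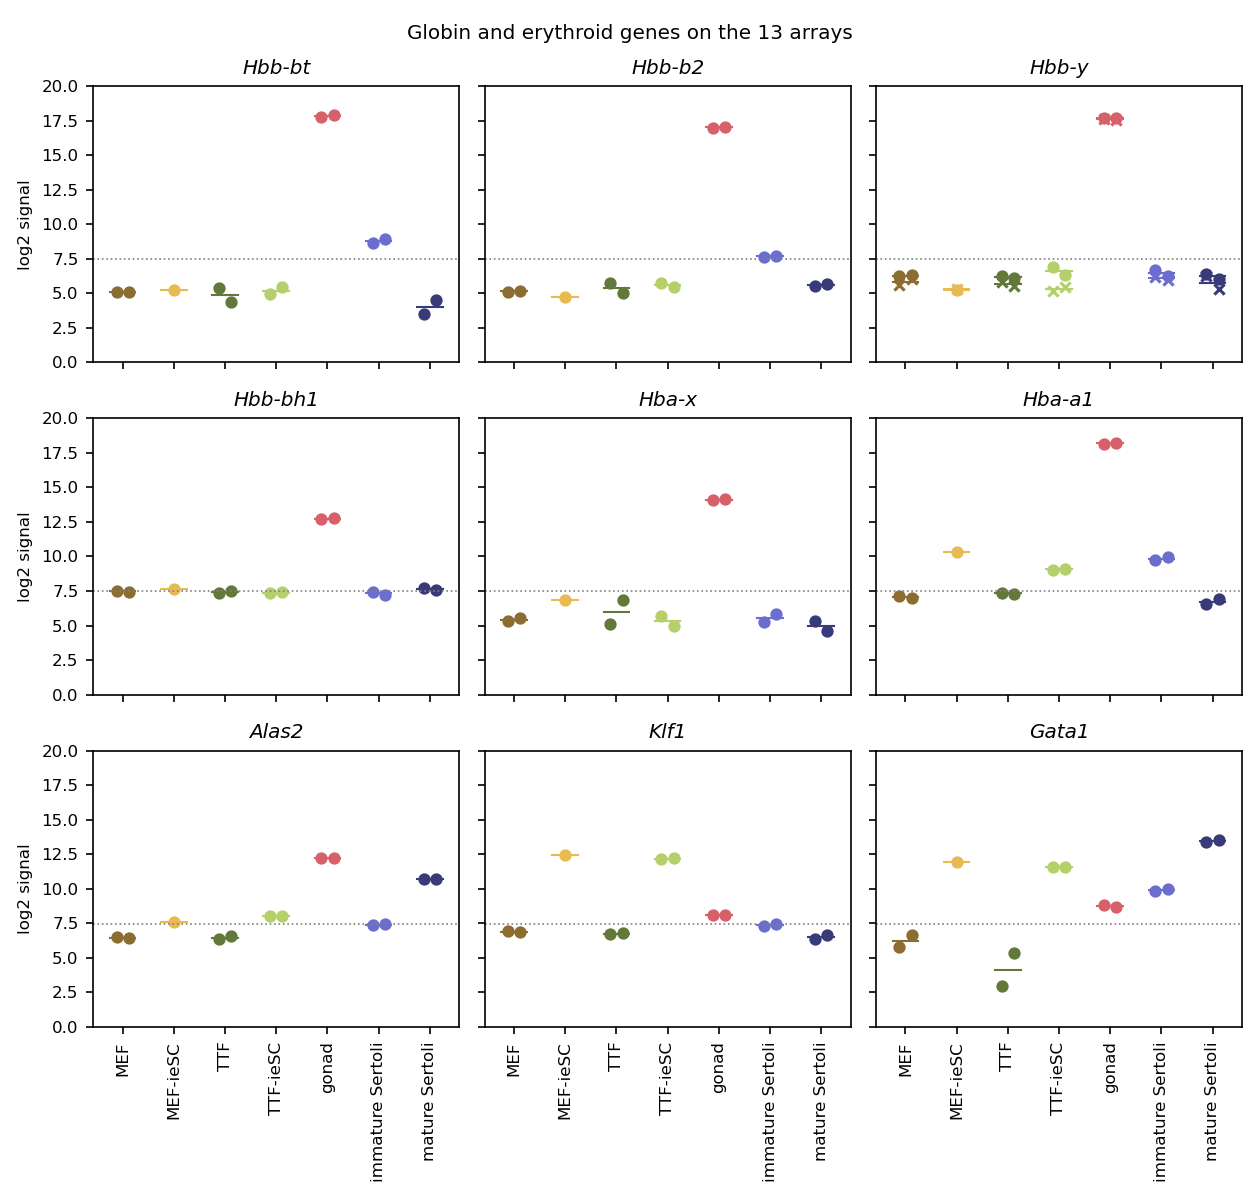
Log2 signal of the 9 genes (y axis) in the 7 groups (x axis), with 1 point per array, a short line at each group mean and a dotted line at the array median of 7.488. For Hbb-y, circles and crosses are its 2 features. The 6 globins are high in the gonad, Klf1 is above 12 only on the 3 ieSC arrays, and Gata1 is highest in mature Sertoli cells.

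The embryonic globins were bright in the gonad alone. Hbb-y was 17.68 and 17.70 there by 1 feature and 17.59 and 17.57 by the other, against 5.15 to 6.91 over both features on the 11 other arrays. Hbb-bh1 was 12.73 and 12.76 in the gonad and 7.24 to 7.75 elsewhere. Hba-x was 14.06 and 14.16 in the gonad and 4.58 to 6.86 elsewhere. In contrast to the adult chains, none of these 3 genes stood above the fibroblast arrays in immature Sertoli cells, where Hbb-y was 6.71 and 6.28, Hbb-bh1 7.46 and 7.24 and Hba-x 5.25 and 5.81.

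Hba-a1, the adult alpha chain gene, had a different distribution from the beta chains. Its signal was 18.14 and 18.24 in the gonad, 10.35 in MEF-ieSC, 9.71 and 9.94 in immature Sertoli cells, 9.0 and 9.12 in TTF-ieSC, 7.03 to 7.39 in the fibroblasts and 6.54 and 6.93 in mature Sertoli cells. The groups did not overlap, with the gonad far above the rest and both kinds of ieSC above their fibroblasts. Hba-a2, a near-identical copy on chromosome 11 that the array also lists, gave 18.62 and 18.68 in the gonad, 11.73 in MEF-ieSC, 11.31 and 11.46 in immature Sertoli cells, 10.17 and 10.28 in TTF-ieSC, 7.73 to 7.99 in fibroblasts and 7.33 and 7.38 in mature Sertoli cells. The array may not separate both copies, so Hba-a2 is no independent reading of Hba-a1.

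The haem enzyme and both factors each had a pattern of their own. Alas2 was 12.21 and 12.24 in the gonad, 10.69 and 10.74 in mature Sertoli cells, 8.02 and 8.04 in TTF-ieSC, 7.60 in MEF-ieSC, 7.36 and 7.43 in immature Sertoli cells and 6.35 to 6.59 in the fibroblasts. Klf1 was 12.45 in MEF-ieSC, 12.16 and 12.21 in TTF-ieSC, 8.08 and 8.08 in the gonad, 7.28 and 7.43 in immature Sertoli cells, 6.72 to 6.95 in the fibroblasts and 6.38 and 6.67 in mature Sertoli cells. Gata1 was 13.40 and 13.52 in mature Sertoli cells, 11.93 in MEF-ieSC, 11.59 and 11.61 in TTF-ieSC, 9.81 and 9.99 in immature Sertoli cells, 8.80 and 8.67 in the gonad, 5.81 and 6.69 in MEF and 2.93 and 5.35 in TTF. The arrays with the most Klf1 and the arrays with the most Gata1 were not those with the most globin. The TTF arrays lay further apart for Gata1 than the replicates of any other group.

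The gonad against the Sertoli cell cultures compares a whole uncultured organ with cells isolated later and grown in serum. All 6 globins, Alas2 and Klf1 were higher in the gonad than in immature Sertoli cells, 8 of 9 members with 0 lower, where 37.9% of all tested genes were called higher and 32.6% lower. Hbb-y and Hba-x count among the 8, here and in the other gonad comparisons, but were tested only because of the gonad arrays, so their differences of 11.20 and 8.58 are a description. Hbb-b2 differed by 9.35 ± 0.21 (log2 difference ± SE, adjusted p = 2.85e-09, limma), Hbb-bt by 9.05 ± 0.37, Hba-a1 by 8.36 ± 0.13 and Hbb-bh1 by 5.40 ± 0.09. Alas2 differed by 4.83 ± 0.08 and Klf1 by only 0.73 ± 0.09 (adjusted p = 0.00014). Of the 8, all but Hbb-bt and Hba-a1 were dim in immature Sertoli cells. Gata1 pointed the other way, at -1.16 ± 0.64, and did not pass (adjusted p = 0.136), although it passed without TTF replicate 1 or without TTF replicate 2 (adjusted p = 0.00362 each), whose spread enters the shared error. In these bulk samples fewer cells of a type and less RNA per cell cannot be told apart.

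Against mature Sertoli cells the gonad was again higher for 8 of 9 members (44.3% of all tested genes were called higher), and Gata1 was lower, at -4.73 ± 0.64 (adjusted p = 0.000142; 35.6% of tested genes were called lower). The differences were 13.82 ± 0.37 for Hbb-bt, 11.45 ± 0.13 for Hba-a1 and 1.51 ± 0.08 for Alas2. Against MEF, embryonic cells in culture, all 9 members were higher in the gonad (41.1% of tested genes were called higher and 36.8% lower), from 12.77 ± 0.37 for Hbb-bt down to 2.48 ± 0.64 for Gata1 (adjusted p = 0.00674) and 1.17 ± 0.09 for Klf1. These 3 comparisons share the gonad arrays.

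**Figure D2:**
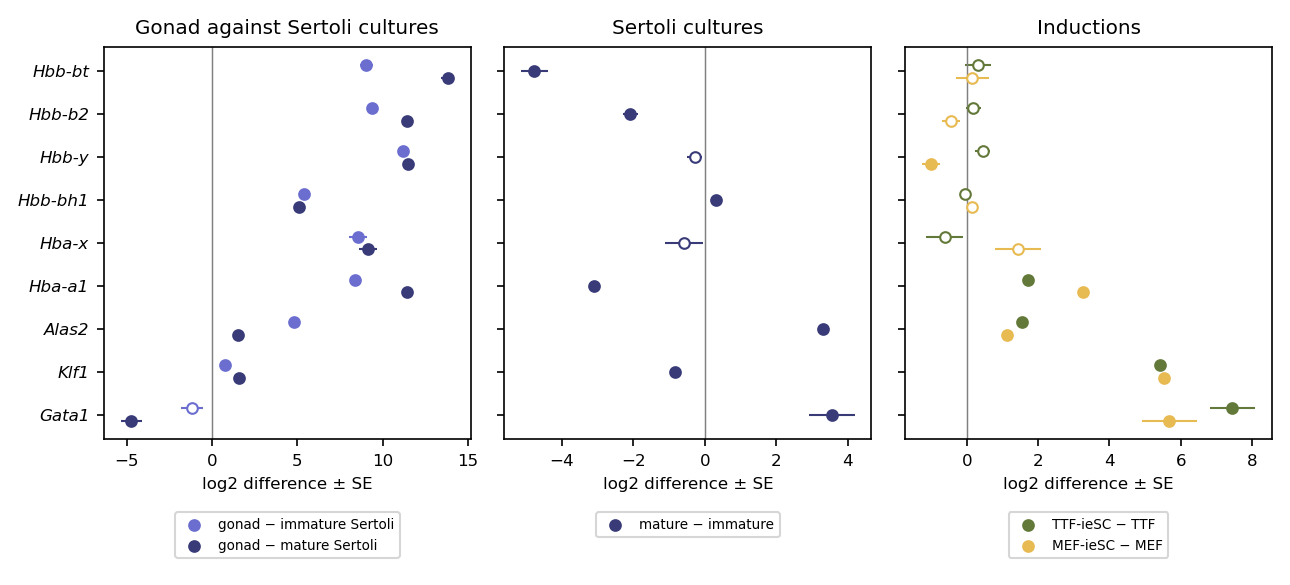
Log2 difference ± SE of each gene (x axis) in the limma fit, with filled points for adjusted p under 0.05 and open points for the rest; the 3 panels have different x scales. The gonad exceeds both Sertoli cultures in all 6 globins, mature Sertoli cells have more Alas2 and Gata1 than immature ones, and both inductions have more Klf1, Gata1, Alas2 and Hba-a1.

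Marker genes of several other cell types differed between the gonad and immature Sertoli cells as well. Among all tested genes, 37.9% were called higher and 32.6% lower in the gonad. All 4 tested Leydig cell genes were higher in the gonad, with a median difference of 3.26 and array medians of 16.14 and 16.18 against 11.98 and 12.10. Of 10 germ cell genes 6 were higher and 2 lower, with a median of 1.53 and array medians of 13.65 and 13.72 against 10.39 and 10.46. Of 10 endothelial genes, all tested, 9 were higher in the gonad than in immature Sertoli cells and 0 were lower, with a median difference of 2.99 against 0.03 over all tested genes. All 10 lay above the array median on both gonad arrays, and their array medians were 11.60 and 11.73 there and 8.23 and 8.36 in immature Sertoli cells. Of 11 leukocyte genes 6 were higher and 0 lower, with the neutrophil genes Mpo at 3.32 ± 0.10 and S100a9 at 2.28 ± 0.14, and array medians of 9.82 and 9.95 against 9.47 and 9.55. Of 6 tested megakaryocyte and platelet genes 3 were higher and 2 lower, with the platelet receptor gene Gp9 at 3.27 ± 0.45 and the platelet chemokine genes Pf4 at -2.43 ± 0.10 and Ppbp at -2.37 ± 0.11; their array medians were 7.84 and 7.91 in the gonad and 7.37 and 7.40 in immature Sertoli cells. Ppbp was brightest in TTF, at 12.39 and 12.48, so its signal need not come from platelets. Macrophage genes had 0 of 10 higher and 5 lower, and array medians of 9.28 and 9.36 against 9.36 and 9.43. The part of these cells in the globin differences was not tested.

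Other red cell genes followed the globins in part. For gonad against immature Sertoli cells, 37.9% of all tested genes were called higher and 32.6% lower. A list of 40 such genes, chosen with earlier results of these data known, had 36 on the array and 33 tested; of these 20 were higher and 8 lower in the gonad than in immature Sertoli cells, with a median of 0.59 against 0.03 over all tested genes. The largest rises in the gonad were those of Nfe2, a globin locus activator (3.62 ± 0.10), Slc4a1, the anion exchanger of the red cell membrane (3.38 ± 0.11), Lmo2 (2.96 ± 0.16), Bcl11a, a repressor of embryonic globins (2.40 ± 0.09), and Tal1 (2.29 ± 0.21); LMO2 and TAL1 act in a complex with GATA1. Lower in the gonad were the membrane skeleton gene Sptb (-3.87 ± 0.16), Zfpm1, the GATA cofactor FOG1 (-1.20 ± 0.05), the transferrin receptor genes Tfr2 (-0.81 ± 0.12) and Tfrc (-0.73 ± 0.09), and Tspan33 (-0.63 ± 0.08). Of the 7 haem synthesis genes on the array besides Alas2, 3 of which the red cell list also holds, 3 were higher and 1 was lower. The housekeeping enzyme gene Alas1 was higher by 2.70 ± 0.07, Urod by 0.58 ± 0.08 and Cpox lower, at -1.40 ± 0.09.

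The mature against the immature Sertoli cultures showed opposite movements of adult globins on one side and Gata1 with Alas2 on the other. Of the 9 members, 4 were lower in mature cells (39.6% of all tested genes were called lower) and 3 were higher (28.9% called higher). Hbb-bt was lower, at -4.77 ± 0.37, Hba-a1 at -3.09 ± 0.13, Hbb-b2 at -2.09 ± 0.21 and Klf1 at -0.83 ± 0.09. Hbb-b2 and Klf1 were dim in both cultures, and Hbb-bt and Hba-a1 in mature cells. Gata1 was higher by 3.56 ± 0.64 (adjusted p = 0.00116) and Alas2 by 3.32 ± 0.08 (adjusted p = 9.04e-09). Alas2 was dim in immature cells (7.36 and 7.43). Hbb-bh1, near the array median in both, was higher by 0.33 ± 0.09, which did not pass without mature Sertoli replicate 1 (0.25, adjusted p = 0.0785) or immature Sertoli replicate 2 (0.22, adjusted p = 0.0688). Hbb-y (-0.28 ± 0.21, adjusted p = 0.263) and Hba-x (-0.58 ± 0.53, adjusted p = 0.358) did not pass and were dim in both.

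Alas2 was not accompanied by the red cell list as a whole in mature Sertoli cells. Of its 33 tested genes 6 were higher and 17 lower than in immature cells, with a median of -0.25 against -0.09 over all tested genes. Higher were Blvrb (1.09 ± 0.07), which reduces biliverdin, Tfr2 (1.02 ± 0.12), Fech, the last enzyme of haem synthesis (0.98 ± 0.06), the mitochondrial transporter gene Abcb10 (0.92 ± 0.24) and Slc25a38, which serves glycine import for haem synthesis (0.43 ± 0.09). Lower were the blood group gene Rhd (-2.02 ± 0.07), Tspan33 (-1.84 ± 0.08), Myb (-1.53 ± 0.53, adjusted p = 0.0310), Tal1 (-1.0 ± 0.21) and Alad (-0.71 ± 0.09). Among the 7 haem synthesis genes 2 were higher, Alas1 by 1.19 ± 0.07 and Fech, and 3 were lower, among them Cpox at -1.15 ± 0.09. Mast cells also use Gata1. Of 6 tested mast cell genes 0 were higher and 4 lower in mature cells, where 28.9% of all tested genes were called higher and 39.6% lower. Among those lower was the protease gene Cpa3, with 8.34 in immature and 5.27 in mature cells, while Hdc was 11.05 and 11.02. Of 11 leukocyte genes 3 were higher and 6 lower, with array medians of 8.30 and 8.46 in mature and 9.47 and 9.55 in immature cells, and the neutrophil genes S100a9 at -5.21 ± 0.14 and S100a8 at -2.67 ± 0.13. Ppbp, a platelet gene but brightest in TTF, was lower too, at -3.05 ± 0.11. It was the 1 called lower of 6 tested megakaryocyte and platelet genes, of which 2 were higher. Of the macrophage genes 5 of 10 were higher and 3 lower, with array medians of 9.99 and 10.04 in mature and 9.36 and 9.43 in immature cells, and germ cell genes had 2 of 10 higher and 4 lower. The part of these cells in the globin, Gata1 and Alas2 differences was not tested.

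**Figure D3:**
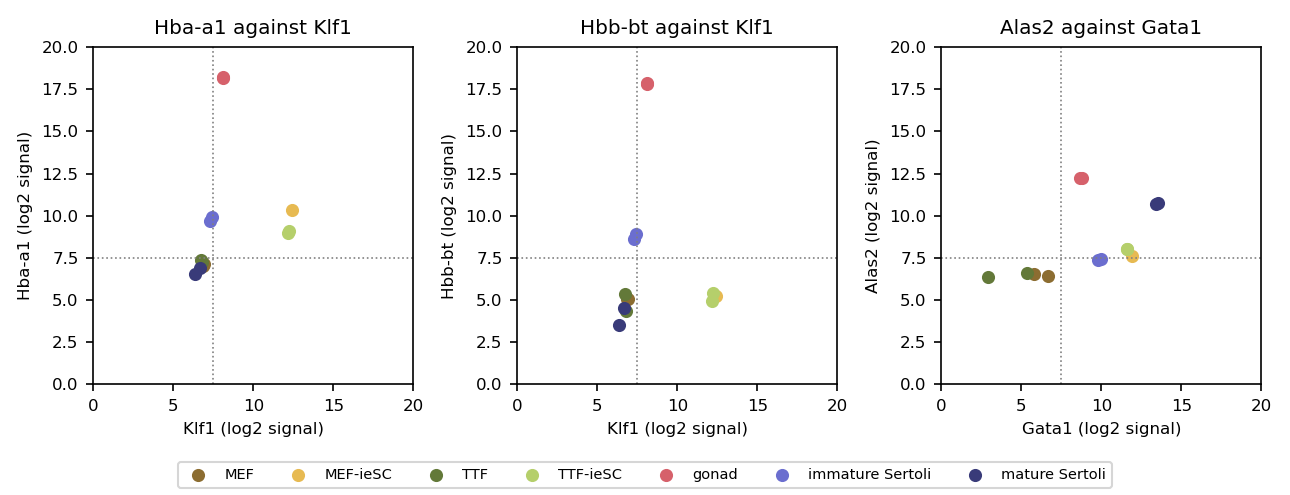
Log2 signal of 2 genes per panel, 1 point per array, coloured by group, with dotted lines at the array median of 7.488. The ieSC arrays have Klf1 above 12 with Hbb-bt under 6 and Hba-a1 at 9.0 to 10.35, while the gonad has Klf1 at 8.08, and Alas2 exceeds 10 only in the gonad and in mature Sertoli cells.

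In both inductions Klf1 and Gata1 rose strongly, Hba-a1 and Alas2 rose moderately, and the beta-type globins gave no rise that passed. In TTF-ieSC against TTF 4 of 9 members rose (39.5% of all tested genes were called higher) and 0 fell (35.2% called lower). Klf1 rose by 5.43 ± 0.09 (adjusted p = 2.08e-10), Gata1 by 7.45 ± 0.64 (adjusted p = 7.18e-06), Hba-a1 by 1.73 ± 0.13 (adjusted p = 3.04e-06) and Alas2 by 1.56 ± 0.08 (adjusted p = 2.95e-07). All 4 genes were dim in TTF, and in MEF for the induction below, so the sizes of their rises rest on an unknown background. Alas2, at 7.60 on the MEF-ieSC array, lay near the array median of 7.488 and so was dim there too. In TTF-ieSC it was 8.02 and 8.04. The size of the Gata1 rise depends on the dim and uneven TTF arrays, at 6.24 without TTF replicate 1 and 8.66 without TTF replicate 2. The differences of the other globins were 0.31 ± 0.37 for Hbb-bt, 0.19 ± 0.21 for Hbb-b2, 0.45 ± 0.21 for Hbb-y, -0.04 ± 0.09 for Hbb-bh1 and -0.62 ± 0.53 for Hba-x, with adjusted p from 0.0832 to 0.696, all dim in both groups. Without TTF replicate 1, Hba-x (-1.51, adjusted p = 0.0093) and Hbb-b2 (0.55, adjusted p = 0.00663) passed, and without TTF-ieSC replicate 2 so did Hbb-y (0.73, adjusted p = 0.0122).

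In MEF-ieSC against MEF, with 1 induced array, the same 4 members rose (34.3% of all tested genes were called higher) and 1 fell (33.6% called lower). Klf1 rose by 5.54 ± 0.11, Gata1 by 5.68 ± 0.78 (adjusted p = 0.000227), Hba-a1 by 3.27 ± 0.16 and Alas2 by 1.13 ± 0.10. The fall was that of Hbb-y, -1.0 ± 0.26 (adjusted p = 0.00798) by its brighter feature and -0.48 ± 0.35 (adjusted p = 0.256, fit over features) by the other, dim in both groups. Hba-x was higher by 1.43 ± 0.65 and Hbb-b2 was -0.43 ± 0.25, neither of which passed (adjusted p = 0.0821 and 0.163), though both passed without TTF replicate 1 or without TTF replicate 2 (adjusted p = 0.0128 and 0.0216 in either case). The inductions share no array, but serum and time in culture differ between ieSC and fibroblasts along with the factors, and these cannot be told apart.

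Of the 5 other globin genes on the array, 3 rose in both inductions. Over all tested genes, 39.5% were called higher in TTF-ieSC against TTF and 34.3% in MEF-ieSC against MEF. Hba-a2 rose by 2.37 ± 0.10 in TTF-ieSC and by 3.86 ± 0.12 in MEF-ieSC. The theta-type globins Hbq1a and Hbq1b rose by 1.07 ± 0.16 and 1.08 ± 0.23 in TTF-ieSC. In MEF-ieSC they rose by 0.93 ± 0.20 and 0.77 ± 0.29. Both were dim on both sides of the inductions. Hbq1a had means of 5.86 in TTF, 6.93 in TTF-ieSC and 5.59 in MEF, and was 6.52 in MEF-ieSC. For Hbq1b these values were 6.49, 7.57, 6.62 and 7.39. Hbb-bs, a further adult beta-type globin, was 14.13 and 14.24 in the gonad, 6.48 and 6.88 in immature Sertoli cells and 2.85 to 7.49 on the other arrays, and did not pass in either induction (adjusted p = 0.998 and 0.716). Hbb-bh2 lay between 6.28 and 7.18 on every array and was not tested.

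Whether the change depended on the fibroblast of origin was tested as a difference of differences, which was called for 3 of 9 members, 2 higher (28.9% of all tested genes) and 1 lower (25.2%). Hba-a1 rose less from TTF than from MEF, at -1.55 ± 0.21 (adjusted p = 0.000343), and Hba-a1 was 10.35 on the MEF-ieSC array against 9.0 and 9.12 in TTF-ieSC, while TTF and MEF had 7.34 and 7.08 on average. Alas2 rose more from TTF, by 0.43 ± 0.13 (adjusted p = 0.0239). Its call was lost when MEF replicate 1 was left out (0.37, adjusted p = 0.0634) and when TTF-ieSC replicate 2 was (0.42, adjusted p = 0.0566). Hbb-y differed by 1.44 ± 0.33 (adjusted p = 0.00633) by its brighter feature and by 0.12 ± 0.45 (adjusted p = 0.837) by the other. For Klf1 the difference was -0.11 ± 0.15 (adjusted p = 0.575) and did not pass. For Gata1 it was 1.77 ± 1.01 (adjusted p = 0.172), or 0.56 without TTF replicate 1 and 2.98 (adjusted p = 0.000943) without TTF replicate 2. Hba-x (-2.94, adjusted p = 0.00352) and Hbb-b2 (0.98, adjusted p = 0.00383) passed without TTF replicate 1.

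The starting fibroblasts themselves differed little in these genes. All 9 were dim in both, near or under the array median, so these differences rest on an unknown background. Of 9 members 1 was called in TTF against MEF, where 35.5% of all tested genes were called lower and 31.1% higher. Gata1 was lower in TTF, at -2.11 ± 0.64 (adjusted p = 0.0182), dim in both, was -0.90 without TTF replicate 1 and -3.32 without TTF replicate 2, and lost its call when MEF replicate 2 was left out (-1.67, adjusted p = 0.106). The other 8 members had differences from -0.21 to 0.55. Hba-a1 (0.26, adjusted p = 0.112) passed without either mature Sertoli array (adjusted p = 0.0469), Hba-x (0.55) without TTF replicate 1 (1.44, adjusted p = 0.0143) and Hbb-b2 (0.27) without TTF replicate 2 (0.63, adjusted p = 0.00448).

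Set against native immature Sertoli cells, TTF-ieSC had 3 members higher (37.8% of all tested genes were called higher) and 3 lower (39% called lower). Klf1 was higher by 4.83 ± 0.09, Gata1 by 1.70 ± 0.64 (adjusted p = 0.0382) and Alas2 by 0.63 ± 0.08. Hbb-bt was lower, at -3.62 ± 0.37, Hbb-b2 at -2.07 ± 0.21 and Hba-a1 at -0.76 ± 0.13. Hbb-b2 was dim in both groups, Hbb-bt in TTF-ieSC, and Klf1 and Alas2 in immature Sertoli cells. The Gata1 call did not hold without 1 array of TTF-ieSC, immature Sertoli cells, mature Sertoli cells or gonad (1.60 to 1.79, adjusted p from 0.054 to 0.122 over these 8 arrays), though the arrays of these groups did not overlap. The ieSC lay between the immature and the mature cultures in Gata1 level and above every native sample in Klf1 level.

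Other red cell genes were split in the inductions. Of all tested genes, 39.5% were called higher and 35.2% lower in TTF-ieSC against TTF. For MEF-ieSC against MEF these shares were 34.3% and 33.6%. Of the 33 tested genes of the list, 19 rose and 12 fell in TTF-ieSC against TTF (median 0.67 against 0.06 over all tested genes), and 16 rose and 12 fell in MEF-ieSC against MEF (-0.08 against 0.01). The 4 largest rises in each, named after their values were seen, were those of Sptb (5.47 ± 0.16 and 6.30 ± 0.20), the erythropoietin receptor gene Epor (5.12 ± 0.10 and 3.88 ± 0.12), Tspan33 (4.14 ± 0.08 and 3.07 ± 0.10) and the red cell adhesion gene Icam4 (3.54 ± 0.06 and 3.48 ± 0.07). The 4 largest falls in TTF-ieSC, chosen the same way, were those of the iron reductase gene Steap3 (-4.86 ± 0.11), Mgst3 (-3.98 ± 0.06), the water channel gene Aqp1 (-2.90 ± 0.06) and the mitochondrial iron importer gene Slc25a37 (-2.67 ± 0.08), and in MEF-ieSC these genes fell as well (-1.16 ± 0.14, -1.93 ± 0.07, -1.64 ± 0.07 and -1.11 ± 0.09 in that order). The largest fall in MEF-ieSC was that of Bcl11a (-4.11 ± 0.11), followed by Mgst3, Tfr2 (-1.93 ± 0.15) and Myb (-1.68 ± 0.65). Sptb was 11.87 in TTF-ieSC and 11.92 in MEF-ieSC, against 11.42 in immature Sertoli cells and 7.55 in the gonad. Tspan33 was 12.04 and 11.79, against 11.53 in immature Sertoli cells and 10.90 in the gonad. Epor and Icam4 were lower in immature Sertoli cells, at 9.06 and 7.69. Epor reached 13.30 in TTF-ieSC and 13.33 in MEF-ieSC against 10.42 in the gonad. Other genes of the list, not picked by size of change, went both ways. Tal1, a defining factor of the lineage, was dim in TTF-ieSC and MEF-ieSC (6.17 and 6.28). So were the red cell membrane genes Rhag (4.88 and 5.99, not tested, 7.01 in the gonad) and Kel (6.37 and 5.48). Gfi1b (8.11 and 9.07), Epb42 (7.73 and 7.48) and Trim10 (8.69 and 8.77) were not under their gonad levels of 7.61, 7.07 and 8.66. Slc4a1 was 8.31 and 8.26 against 10.65 in the gonad, though it rose by 0.67 and 0.84 in the inductions. Of the 7 haem synthesis genes 4 rose in each, Alad by 2.73 ± 0.09 and 2.74 ± 0.11 and Ppox by 2.33 ± 0.09 and 1.47 ± 0.11, while Alas1 fell by 1.05 ± 0.07 and by 0.57 ± 0.09. Of 10 macrophage genes, 5 fell and 1 rose from TTF, where 35.2% of all tested genes were called lower. Their median difference was -0.41 from TTF and -1.09 from MEF. Array medians of these genes were 8.24 and 8.37 in MEF and 6.21 in MEF-ieSC. They were 7.36 and 7.56 in TTF and 6.20 and 6.53 in TTF-ieSC. Of 11 leukocyte genes, 4 rose and 2 fell from TTF, and their median difference was 0.18 from TTF and -0.65 from MEF. Array medians of the leukocyte genes were 8.15 and 8.24 in MEF and 7.49 in MEF-ieSC. They were 7.20 and 7.22 in TTF and 7.32 and 7.52 in TTF-ieSC.

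**Figure D4:**
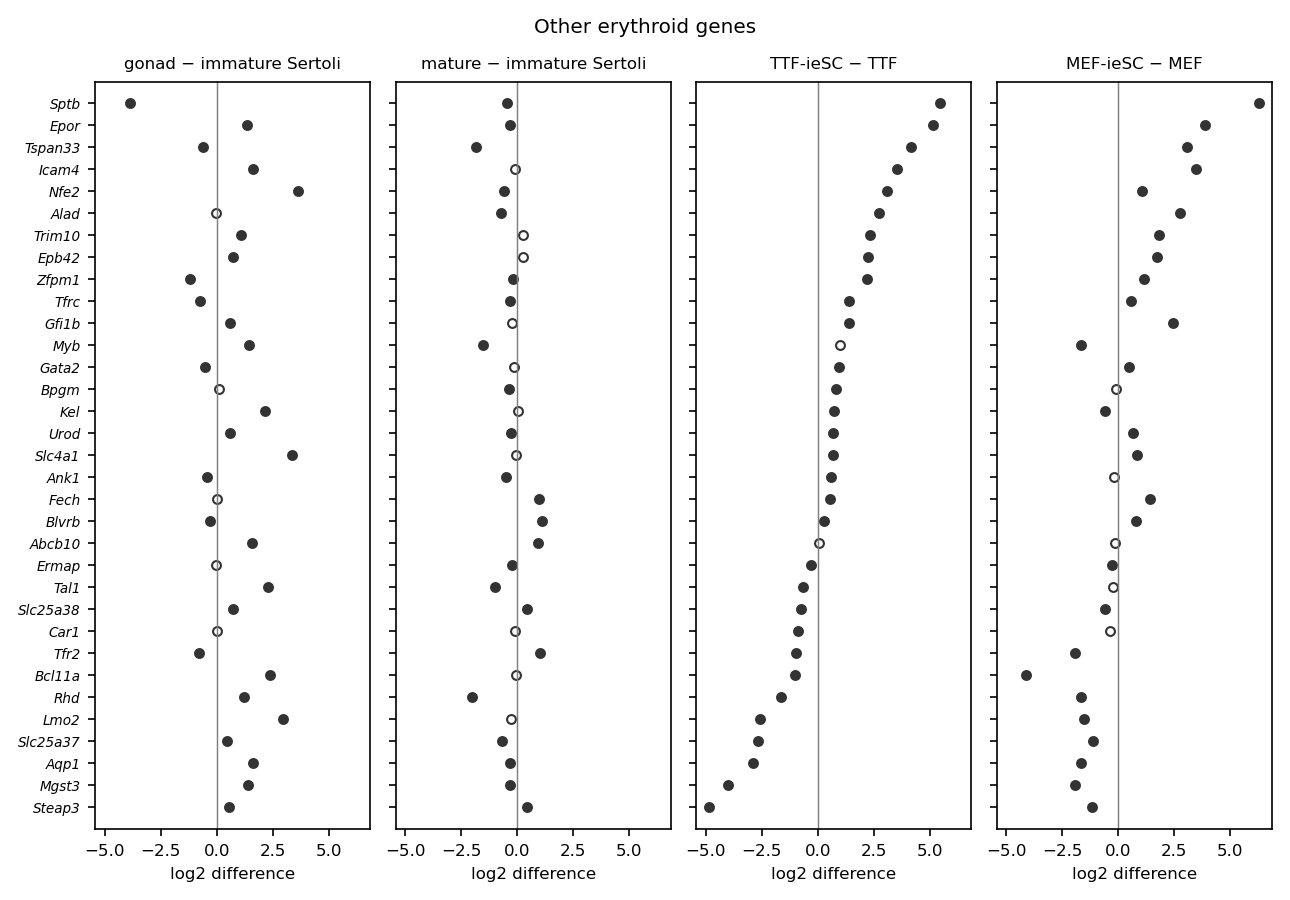
Log2 difference (x axis) of the 33 tested genes of the red cell list (y axis, ordered by TTF-ieSC against TTF) in 4 comparisons, with filled points for adjusted p under 0.05. Sptb, Epor, Tspan33 and Icam4 stand at the right in both inductions, and Nfe2, Slc4a1 and Lmo2 at the right in the gonad.

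The genes whose profile over the 13 arrays was most like that of Hba-a1, the member with the highest mean signal, were Hba-a2 (Pearson r = 0.994), Cacna2d2 (0.992), Zfp451 (0.986), Lyl1 (0.986) and Taf6 (0.985). For Hba-a1 the gonad arrays stand apart and set these values, and Lyl1, a blood transcription factor, was 11.25 in the gonad and 8.24 to 9.42 elsewhere by group mean. Most like Gata1 were Col4a3 (0.980), Slx (0.965), Gkap1 (0.965), Slc26a7 (0.964) and St3gal6 (0.963). Col4a3, a basement membrane collagen gene, was 10.40 in mature Sertoli cells, 10.19 in TTF-ieSC, 10.06 in MEF-ieSC, 9.21 in immature Sertoli cells, 7.85 in the gonad, 7.11 in MEF and 5.87 in TTF by group mean. Most like Klf1, looked up after its values were seen, were Cnfn (0.996), Extl1 (0.992), Atp6v0a4 (0.992), Paqr4 (0.990) and Ttr (0.990), with the 3 ieSC arrays apart from the rest. Ttr, the carrier of thyroxine in blood, was 14.72 in TTF-ieSC, 15.47 in MEF-ieSC and 7.85 in the gonad. The arrays of a group share their cells, so these correlations describe group patterns and carry no p.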

How the data were processed

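Total RNA of each sample was labelled with Cy3 and hybridised to an Agilent mouse array, per the labels' protocols. The authors deposited 1 log2 signal per feature and array; the identical quantiles show a normalization between arrays, and the submitters' processing notes name limma. The background correction and detection filter were left unstated in the sources used here. Of 62976 features, 31465 had 1 gene symbol, 0 several and 31511 none, through RefSeq accession (29050), symbol (2061), older name (349) or the platform's own name (5). Each of 20738 genes was read by its brightest feature, and 1 limma model (limma 3.58.1, R 4.3.3; lmFit and eBayes, residual df 6) over 13 arrays in 7 groups tested those exceeding the array median on 2 or more arrays. Benjamini-Hochberg adjustment ran over all 16658 tested genes, with a call at adjusted p under 0.05, and the code was tested on simulated data. A difference always gives the group named as higher or lower minus the other. No paired block was used, because replicate numbers follow accession order. The design text speaks of duplicates; 1 MEF-ieSC array was analysed here. Alternatives were the normalization, the filter, the choice of feature, the variance model, the arrays fitted and leaving out each array. The members and gene lists were chosen with earlier results of these data known. Genes of the red cell list were named, for the gonad and mature cells against immature cells, as the 5 largest changes among calls in each direction. Promoters came from RefSeq.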

Additional observations from a re-analysis of the deposited data

Results flagged for a closer look

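The change from fibroblast to induced cell differed between the origins for 3 of the 9 genes, by the limma test of that difference (TTF-ieSC minus TTF, less MEF-ieSC minus MEF), 2 higher and 1 lower, where 28.9% of all tested genes were called higher and 25.2% lower. It was -1.55 for Hba-a1. It was 1.44 for Hbb-y by its brighter feature and 0.12 (adjusted p = 0.837) by the other. It was 0.43 for Alas2, a call lost without MEF replicate 1 (0.37, adjusted p = 0.0634) and without TTF-ieSC replicate 2 (0.42, adjusted p = 0.0566). The MEF-ieSC side is 1 array in each case, and what set the origins apart was not tested.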

How the results depend on the processing

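Of 1674 values of single genes over 21 alternatives, 1616 kept their direction and their side of the threshold, 17 lost a call, 21 gained one and 20 changed sign without being called. Of 558 counts, 539 stayed within 1.5 times and 19 did not. The rises of Klf1, Gata1, Hba-a1 and Alas2 in both inductions, and the differences of Hbb-bt, Hbb-b2, Hbb-bh1 and Hba-a1 in the gonad comparisons, kept their calls in all alternatives that gave a value (MEF-ieSC gave none without its 1 array). With the mean of a gene's features, Hbb-y in TTF-ieSC against immature Sertoli cells was -0.32 and the origins differed upward for 1 member; with the filter at the 75th percentile they differed downward for 2. Fitted on the compared groups alone, members called lower were 1 in gonad against immature Sertoli cells, 0 in TTF against MEF (1 higher) and 2 in MEF-ieSC against MEF. Leaving out 1 array at a time, members called lower numbered 0 to 1 in gonad against immature Sertoli cells, 0 to 1 in TTF-ieSC against TTF, 1 to 2 in MEF-ieSC against MEF, and 0 to 1 (also 0 to 1 higher) in TTF against MEF; the origins differed for 1 to 3 upward and 1 to 2 downward. In the same runs TTF against MEF ranged from -0.13 to 0.12 for Alas2, -0.09 to 0.63 for Hbb-b2, -0.12 to 0.01 for Hbb-bh1, -0.34 to 1.44 for Hba-x and -0.70 to 0.28 for Hbb-bt. TTF-ieSC against TTF ranged from -0.10 to 0.02 for Hbb-bh1, -1.51 to 0.27 for Hba-x, -0.17 to 0.55 for Hbb-b2 and -0.18 to 0.80 for Hbb-bt. TTF-ieSC against immature Sertoli cells ranged from -0.16 to 0.41 for Hbb-y, -0.54 to 0.17 for Hba-x and -0.07 to 0.15 for Hbb-bh1, and the difference between origins from -0.34 to 0.64 for Hbb-bt. Most of these genes were dim in the groups concerned, and the cause was not tested. No paired analysis was possible because the labels give no replicate numbers. With 1 or 2 arrays a group, a lone array is assumed to vary like the other groups.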

Other observations

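Genes next to Klf1 and Gata1 on their chromosomes, looked up after the values of both were seen, also differed between ieSC and fibroblasts in part. Beside Klf1 on chromosome 8, Mast1 rose by 3.72 in TTF-ieSC and 2.92 in MEF-ieSC and Syce2 by 1.44 and 1.09. Dnase2a, whose gene lies directly after Klf1, was -0.03 (adjusted p = 0.796) in TTF-ieSC and rose by 0.59 in MEF-ieSC. The other neighbours of Klf1 were Gcdh (0.60 and 1.03), Farsa (0.37 and -0.05) and Rtbdn (0.32 and -0.08). Beside Gata1 on the X chromosome, Glod5 rose by 4.37 and 4.95, Eras by 4.60 and 2.31 and the deacetylase gene Hdac6 by 2.71 and 2.83. Its other neighbours were Pcsk1n (0.34 and 1.54), Suv39h1 (0.50 and 0.36) and Was (0.34 and -0.61). Neighbours of Alas2 and Hba-a1 went both ways, from Tro beside Alas2 (-2.93 and -5.52) to Hba-a2 beside Hba-a1 (2.37 and 3.86). In TTF-ieSC against TTF, 39.5% of all tested genes were called higher and 35.2% lower. In mature against immature Sertoli cells, where Gata1 was higher, Glod5 (0.17, adjusted p = 0.418), Hdac6 (-0.04, adjusted p = 0.701) and Eras (-0.43, adjusted p = 0.27) did not pass. Pcsk1n was higher there by 0.74 (adjusted p = 6.09e-05). Suv39h1 (adjusted p = 0.00804) and Was (adjusted p = 0.00174) were lower, each at -0.55. Of all tested genes, 28.9% were called higher and 39.6% lower there.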
